A study of Mus musculus with 9 samples.

Results

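The MET receptor and its HGF system were examined as 9 genes, taken by symbol from the 54429 symbols in the count table. They are the receptors Met and Mst1r, the ligands Hgf and Mst1, the activators Hgfac and St14, the inhibitors Spint1 and Spint2, and the adaptor Gab1. Met was chosen because its counts rise with treatment, so its levels against vehicle are described here without a test, and the question was whether the genes around it followed. A low-count filter kept 7 of the 9 (Hgfac and Mst1 fell below it) and 15931 genes in all.

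MET is a receptor tyrosine kinase. Its ligand, hepatocyte growth factor (HGF), is secreted mainly by mesenchymal cells as an inactive single chain, is cut by serine proteases such as HGF activator and matriptase, and then drives growth, motility and scattering of the cells that carry MET. The protease inhibitors HAI-1 and HAI-2 hold that cleavage back, and the docking protein GAB1 carries the signal from the activated receptor to the ERK and PI3K pathways. RON, the product of Mst1r, is the closest relative of MET and binds macrophage-stimulating protein, which is encoded by Mst1 and is also cut from an inactive form.

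RNA-seq was carried out on 9 whole NB9464 tumors, a MYCN-amplified mouse neuroblastoma line, grown under the skin of WT C57BL/6 mice to 250 mm3 before treatment. Mice received vehicle, R788 + anti-PDL1, or Rad + R788 + anti-PDL1 (the irradiated tumors), with 3 tumors in each group, called replicates 1 to 3. R788 (fostamatinib, an inhibitor of the kinase Syk) was given at 50 mg/kg 5 times a week, anti-PDL1 mAb was clone 10F.9G2 and blocks a T cell checkpoint ligand, and radiation was 10 Gy. That weekly schedule is the one in the sample labels, and the series text lists 4 doses from day 28 to day 37. Every tumor came from a single cell line, C57BL/6 mice were 4 to 6 weeks old per the study's methods, and tumors given radiation, R788 or anti-PDL1 on its own were not analysed here. Beyond the sample names, nothing in the labels says that the tumors of a group came from separate mice, so p-values measure the spread between these samples.

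Libraries held 18276683 to 23397886 counts, so that 3 counts, the limit that a count of 0 allows, corresponded to 0.115 to 0.221 CPM. CPM is the usual depth-scaled unit, here a count over the TMM-scaled library size. This limit covers counting error only. Irradiated replicate 1 stood apart from the other 8 libraries, with a TMM scaling factor of 0.743 (0.975 to 1.12 elsewhere), 1.97% mitochondrial counts (3.48% to 5.71% elsewhere) and 18263 genes with a count (19732 to 22129 elsewhere). Of the neuroblast markers, Hand2 (6545 to 12901 counts) and mouse Mycn (1265 to 6107 counts) were present in every library, whereas Th, the tyrosine hydroxylase gene of catecholamine synthesis, had 0 counts in all 9 and Dbh, which acts later in that synthesis, had at most 1 count. Other members of the list went different ways. Isl1, a neuronal transcription factor gene, was at 0 in vehicle tumors, 2.65 ± 0.848 CPM in R788 + anti-PDL1 tumors (edgeR adjusted p = 0.0344) and 1.12 ± 0.219 CPM in irradiated tumors (0.0605). Being absent from vehicle tumors, Isl1 passed the low-count filter only through the treated tumors. No SE could be computed for its differences, so these p-values are not independent support. Ddc, which also serves catecholamine synthesis, was at 16.6 ± 2.75, 5.44 ± 2.15 and 8.66 ± 4.62 CPM, without overlap between vehicle and either treated group (0.155 and 0.383). Gata3 was at 4.86 ± 5.82, 0.432 ± 0.199 and 6.25 ± 0.487 CPM. The 10 markers summed to 506 to 632 CPM in vehicle, 625 to 701 CPM in R788 + anti-PDL1 and 626 to 981 CPM in irradiated tumors, and their part in the results was not tested.

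The promoters of both receptors and of the main ligand are shown because these are the genes on which the comparisons turn. The letters are from RefSeq (GRCm38.p6), 5′ to 3′, and stop before the first annotated transcript start. Capitals mark a GC box (GGGCGG, or CCGCCC where it lies on the other strand), the element bound by SP1.
Met promoter, chr6:17463707-17463799, plus strand: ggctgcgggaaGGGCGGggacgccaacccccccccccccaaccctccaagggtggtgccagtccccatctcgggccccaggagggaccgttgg
Mst1r promoter, chr9:107906639-107906872, plus strand: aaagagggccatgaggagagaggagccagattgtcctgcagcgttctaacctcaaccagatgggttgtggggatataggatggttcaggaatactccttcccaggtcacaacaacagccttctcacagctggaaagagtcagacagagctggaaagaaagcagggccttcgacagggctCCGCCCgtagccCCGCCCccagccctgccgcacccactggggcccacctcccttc
Hgf promoter, chr5:16553245-16553494, plus strand: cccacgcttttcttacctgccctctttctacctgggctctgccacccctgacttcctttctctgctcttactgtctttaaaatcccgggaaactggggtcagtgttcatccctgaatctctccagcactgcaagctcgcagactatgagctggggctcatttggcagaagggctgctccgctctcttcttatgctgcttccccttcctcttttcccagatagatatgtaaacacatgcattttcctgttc
In windows reaching 250 bases before and 50 after a RefSeq start, the Met promoter held 3 GC boxes, 1 AP-1 motif (TGANTCA) and 1 E-box (CACGTG), and the first Mst1r window held 2 GC boxes. The Hgf windows held none of these, and no window of the receptors or of Hgf held the ETS motif CCGGAAG. Both strands were searched and the motifs do not overlap in sequence. Of 32851 such windows, 35.7% held a GC box, 7.81% an AP-1 motif, 7.15% an E-box and 8.86% the ETS motif, so a GC box was common among promoters. RefSeq places another Mst1r start inside the gene, and counts per gene cannot tell the transcripts of the 2 starts apart.

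Met (ENSMUSG00000009376.15, GRCm38 chr6:17463800-17573980) was close to the detection limit in vehicle tumors, higher in R788 + anti-PDL1 tumors and higher again in irradiated tumors. It stood at 0.110, 0.359 and 0.822 CPM in vehicle replicates 1, 2 and 3 (2, 8 and 15 counts). In R788 + anti-PDL1 tumors it stood at 7.67, 2.18 and 6.31 CPM. In Rad + R788 + anti-PDL1 tumors it stood at 21.8, 32.1 and 30.0 CPM. The groups did not overlap in any pair, and irradiated replicate 1, the library that stood apart, was the lowest of the irradiated tumors. Group means were 0.431 ± 0.361, 5.39 ± 2.86 and 28.0 ± 5.46 CPM (SD, n = 3). Against vehicle the log2 difference was 3.63 for R788 + anti-PDL1 (12.4-fold) and 6.01 for the irradiated group (64.3-fold), values that chose the gene and carry no test here. In bulk tumors, a change in the share of cells that express a gene and a change in its RNA per cell cannot be told apart.

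Irradiated tumors were also compared with the other treated tumors for Met. The choice of Met used these same values, of which the irradiated ones are the highest, so the test is not independent of the choice. The difference was 2.38 ± 0.54 on the log2 scale (SE; 95% interval 1.17 to 3.59), or 5.19-fold. It did not pass the threshold in edgeR (quasi-likelihood test, Benjamini-Hochberg adjusted p = 0.179), where 1 of all genes tested did (0.00628%). An unadjusted p under 0.05 was found for 18.4% of all genes, and groups that did not overlap for 27.4% (14.2% with the irradiated group higher). DESeq2, the tool used by the study, gave the same size (2.38) with an adjusted p of 0.00124, in a comparison where it called 5.62% of the genes it tested. Without irradiated replicate 1 the edgeR difference was 2.54 (adjusted p = 0.109).

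**Figure D1:**
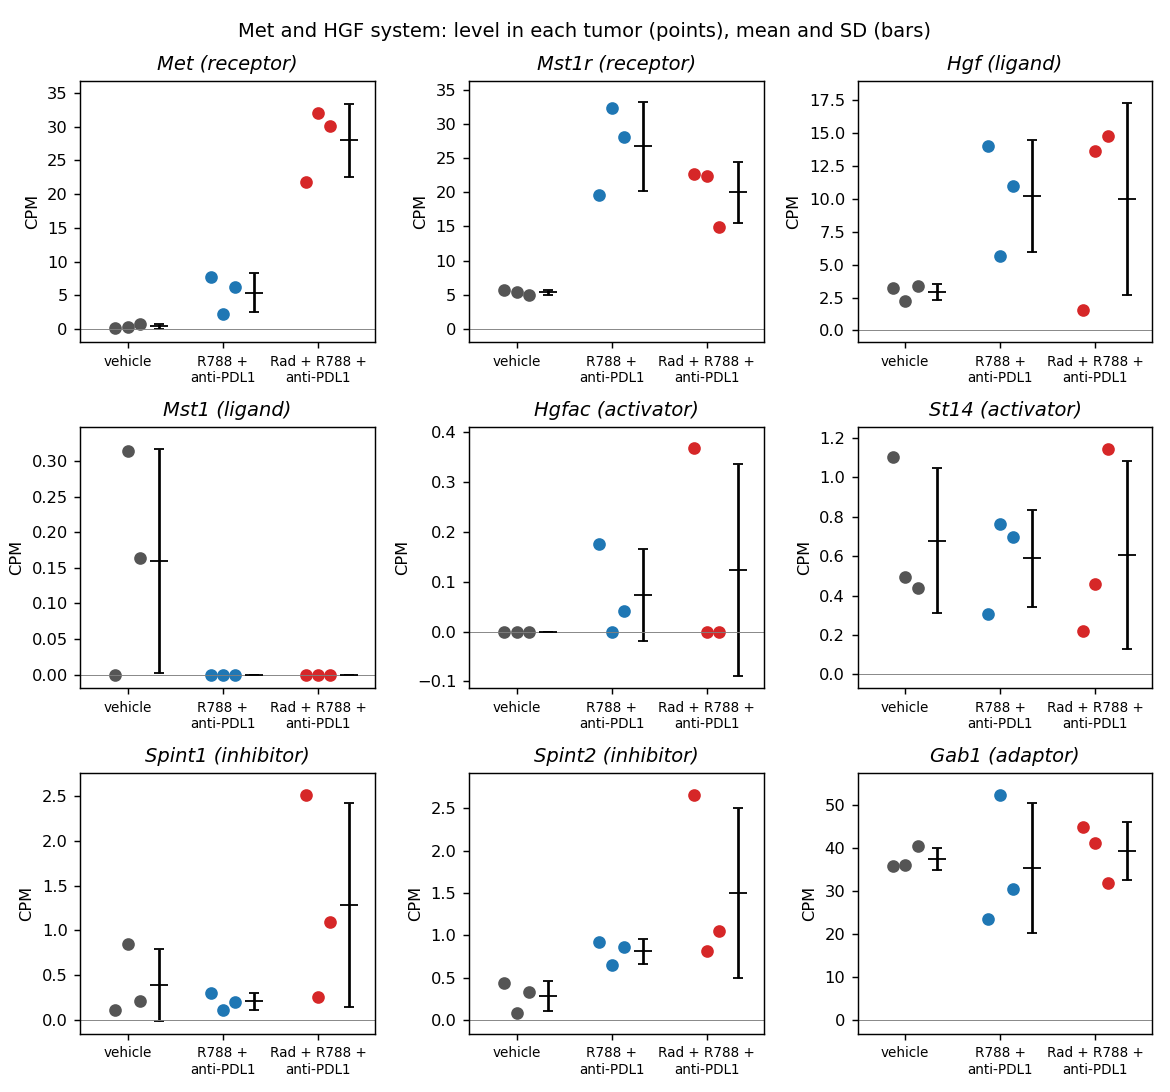
Level of each of the 9 genes in CPM (y axis, linear and scaled separately for each gene) in every tumor, by treatment group (x axis). Points are tumors in the order replicate 1 to 3, and the bars beside them are the mean and SD of 3 tumors. Met separates all 3 groups, Mst1r separates treated from vehicle tumors, and Hgf is above every vehicle tumor in 5 of 6 treated tumors, with irradiated replicate 1 at 1.55 CPM.

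Mst1r (ENSMUSG00000032584.12, chr9:107906873-107920383), the RON receptor gene, rose in R788 + anti-PDL1 tumors and was also higher in irradiated tumors. Vehicle tumors were tightly grouped at 5.69, 5.43 and 4.99 CPM. R788 + anti-PDL1 tumors stood at 19.6, 32.4 and 28.2 CPM, and irradiated tumors at 22.7, 22.3 and 14.9 CPM. Every treated tumor was above every vehicle tumor, while the treated groups overlapped each other. Mst1r was higher by 2.31 ± 0.26 on the log2 scale in R788 + anti-PDL1 tumors (4.97-fold, 95% interval of the log2 difference 1.73 to 2.90). It passed the edgeR test (adjusted p = 0.0344) and ranked 2 of 15931 genes by p.

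Mst1r was the only one of the 6 tested partners of Met to pass in R788 + anti-PDL1 tumors, where 0.678% of all genes passed (0.389% higher) and 11.7% had an unadjusted p under 0.05. DESeq2, which called 4.86% of all genes, and limma-voom, which called 0.559%, also called Mst1r alone. The call was lost in edgeR when replicate 2 of vehicle (adjusted p = 0.164), replicate 3 of vehicle (0.201), or replicate 1 (0.0537) or replicate 3 (0.216) of the treated group was left out. In those fits 0 genes of the whole table passed, and over all alternatives the log2 difference stayed between 2.15 and 2.49. Without irradiated replicate 1, which lies outside this comparison but shares its estimate of spread, the adjusted p was 0.00425.

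In irradiated tumors Mst1r was higher than in vehicle by 1.89 ± 0.26 on the log2 scale (3.71-fold). This missed the threshold in edgeR (adjusted p = 0.0605), in a comparison where 0.0439% of genes passed and 13.2% had an unadjusted p under 0.05, and passed in DESeq2 (6.65e-08) and in edgeR without irradiated replicate 1 (1.82, adjusted p = 0.0362). Between the treated groups the difference was -0.42 ± 0.26 (95% interval -0.999 to 0.16, edgeR adjusted p = 0.385). Every irradiated tumor was above every R788 + anti-PDL1 tumor for Met, and the same groups overlapped for Mst1r. Whether the receptors differ in that respect was not tested.

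Hgf (ENSMUSG00000028864.7, chr5:16553495-16620152), the ligand of MET, was above every vehicle tumor in 5 of 6 treated tumors and did not pass the test. Vehicle tumors held 3.20, 2.20 and 3.34 CPM. R788 + anti-PDL1 tumors held 14.02, 5.66 and 10.98 CPM, all above vehicle. Irradiated tumors held 1.55, 13.6 and 14.8 CPM, so replicate 1 was below every vehicle tumor and replicates 2 and 3 were above all of them. The log2 difference from vehicle was 1.81 ± 0.68 in R788 + anti-PDL1 tumors (edgeR adjusted p = 0.347) and 1.78 ± 0.68 in irradiated tumors (0.342).

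Without irradiated replicate 1 the R788 + anti-PDL1 difference was 1.83 ± 0.34 and passed the edgeR test (adjusted p = 0.0248). It also passed when only the 6 libraries compared were fitted (1.85, 0.0437). Those fits called 856 and 594 genes of the whole table, against 108 in the main fit. They were the only 2 of 14 alternatives to call Hgf, which missed in DESeq2 (adjusted p = 0.0995) and limma-voom (0.445). The irradiated difference without irradiated replicate 1 was 2.31 (edgeR adjusted p = 0.0546). The 9 fibroblast markers, none of them at 0 in any library, summed to 3147 to 3851 CPM in vehicle, 3002 to 5609 CPM in R788 + anti-PDL1 and 2585 to 5047 CPM in irradiated tumors, and irradiated replicate 1 had the lowest sum of all 9. In R788 + anti-PDL1 tumors the order was the reverse, with the highest Hgf in replicate 1, which had the lowest fibroblast sum of its group (3002 CPM), and the lowest Hgf in replicate 2, which had the highest (5609 CPM). Their part in the Hgf values was not tested. Hgf shares 484 exon bases with Gm43489 on the same strand, which had 0 to 13 counts per library, against 21 to 323 for Hgf.

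Mst1 (ENSMUSG00000032591.15, chr9:108080436-108085003), the ligand gene of RON and not the kinase of the same nickname, was at or near 0. It had 0, 7 and 3 counts in vehicle tumors and 0 in all 6 treated tumors. No fold is given, because the groups lie at or close to the limit of 3 counts. It lies 160.1 kb from Mst1r on the same chromosome and shares 195 exon bases with Rnf123 on the other strand, so even these few counts are uncertain. Rnf123 itself had 229 to 1377 counts per library.

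Of the activators, Hgfac (ENSMUSG00000029102.9, chr5:35041509-35048461), the protease HGF activator that is made mainly by the liver, had 0 counts in every vehicle tumor. It had 4, 0 and 1 counts in R788 + anti-PDL1 tumors and 5, 0 and 0 in irradiated tumors. St14 (ENSMUSG00000031995.9, chr9:31089402-31131853), the membrane protease matriptase, had 20, 11 and 8 counts in vehicle, 7, 20 and 17 in R788 + anti-PDL1 and 3, 9 and 25 in irradiated tumors. Its groups overlapped, with means of 0.679 ± 0.369, 0.590 ± 0.246 and 0.607 ± 0.478 CPM. The St14 difference from vehicle was -0.19 ± 0.72 in R788 + anti-PDL1 and -0.13 ± 0.73 in irradiated tumors (edgeR adjusted p = 0.951 and 0.939). The 95% interval in the R788 + anti-PDL1 group was -1.81 to 1.43, so a rise or a fall within that range remained possible.

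The inhibitors were also low. Spint2 (ENSMUSG00000074227.12, chr7:29256323-29281912), the gene of HAI-2, had 8, 2 and 6 counts in vehicle, 21, 17 and 21 in R788 + anti-PDL1 and 36, 16 and 23 in irradiated tumors. Every treated tumor was above every vehicle tumor in CPM, with means of 0.287 ± 0.180, 0.812 ± 0.144 and 1.51 ± 1.003. Every vehicle tumor held fewer Spint2 counts than the filter's minimum of 10. Spint2 was thus tested only because of the treated tumors, where it was higher, and its tests against vehicle are not independent of that filter. The Spint2 difference from vehicle was 1.502 ± 0.71 (edgeR adjusted p = 0.458) and 2.37 ± 0.70 (0.265), and the latter passed in DESeq2 (2.44, 0.0442) and was 1.73 (0.263) in edgeR without irradiated replicate 1. Spint1 (ENSMUSG00000027315.13, chr2:119237362-119249527), the gene of HAI-1, had 2, 19 and 4 counts in vehicle, 7, 3 and 5 in R788 + anti-PDL1 and 34, 5 and 24 in irradiated tumors. Its groups overlapped, its differences from vehicle were -0.93 ± 1.01 (0.792) and 1.64 ± 0.94 (0.438), and the first turned to 0.32 without vehicle replicate 2, which held the most Spint1 counts of its group. The second was 0.79 (0.733) without irradiated replicate 1.

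Gab1 (ENSMUSG00000031714.9, chr8:80764438-80880519), the docking adaptor, differed little between groups. It stood at 35.9, 36.0 and 40.6 CPM in vehicle, 23.5, 52.3 and 30.5 CPM in R788 + anti-PDL1 and 44.9, 41.1 and 32.0 CPM in irradiated tumors. The groups overlapped. The Gab1 difference from vehicle was -0.08 ± 0.29 (95% interval -0.73 to 0.57, edgeR adjusted p = 0.948) and 0.07 ± 0.29 (0.919), and the first had the opposite sign (0.01) under upper-quartile scaling. Gab1 shares 266 exon bases with the antisense gene Gm31105, which had 0 to 9 counts.

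Counted together, 3 of the 8 partners (Mst1r, Hgf and Spint2) lay above vehicle without overlap in R788 + anti-PDL1 tumors, where 13.6% of all genes did (30.1% in either direction). Mst1r and Spint2 did so in irradiated tumors, where 9.27% of all genes did (20.5% in either direction). Spint2 passed the low-count filter only through the treated tumors, so its place in these counts and calls is not independent of that filter. In irradiated against vehicle tumors 0 of the 6 tested partners passed in edgeR, 3 had an unadjusted p under 0.05 (13.2% of all genes), and the number called was 2 in DESeq2 (Mst1r and Spint2, with 3.85% of all genes called) and 0 in limma-voom (0.0502%). In irradiated against R788 + anti-PDL1 tumors the count was 0 in edgeR, DESeq2 and limma-voom, and 1 (Spint1, 2.58 ± 0.97, adjusted p = 0.240) had an unadjusted p under 0.05 in edgeR (18.4% of all genes). Both comparisons with vehicle use the same 3 control tumors. The median log2 difference over all genes was -0.02, 0.05 and 0.04 in the 3 comparisons.

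**Figure D2:**
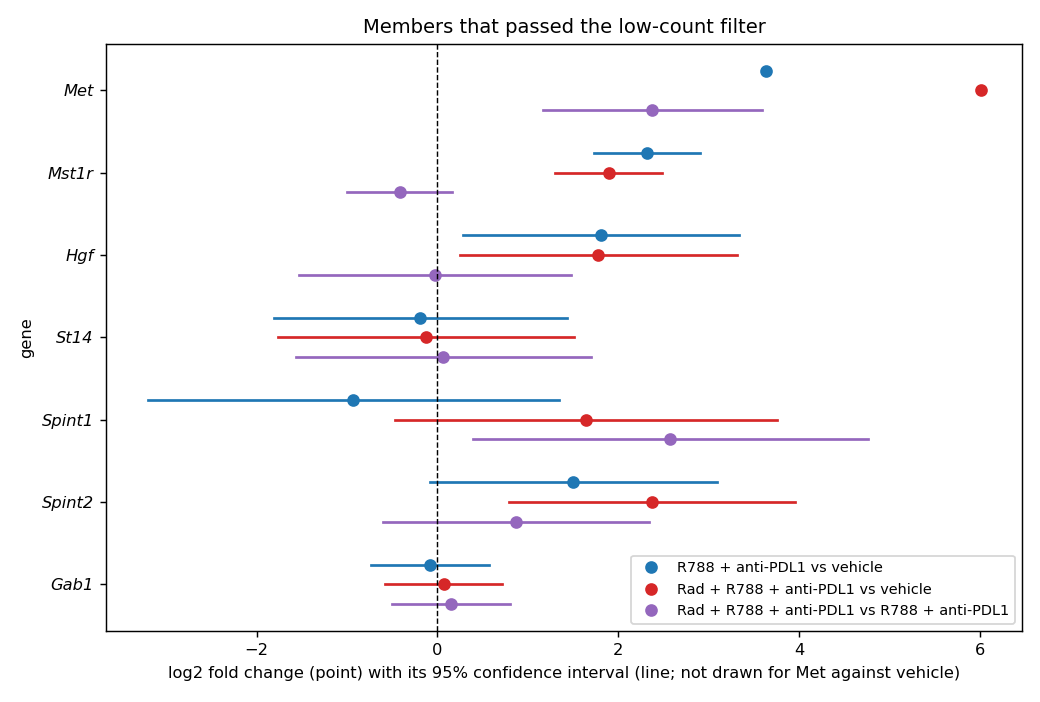
Log2 fold change (x axis) of the 7 genes that passed the low-count filter (y axis), with colors for the 3 comparisons. Lines are 95% confidence intervals and are not drawn for Met against vehicle, which is a description. The Mst1r and Hgf intervals against vehicle lie above 0, as does that of Spint2 in irradiated against vehicle tumors. The Met and Spint1 intervals in irradiated against R788 + anti-PDL1 tumors also lie above 0. Intervals are not adjusted for the number of genes tested. The Gab1 and St14 intervals span 0, and the Spint1, Spint2 and Hgf intervals are wider than those of Mst1r and Gab1.

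Per kilobase of exon, which allows genes to be compared, the order of levels changed with treatment. In vehicle tumors Gab1 led at 7.38 ± 0.52 CPM per kb, followed by Mst1r at 1.07 ± 0.0707 and Hgf at 0.406 ± 0.0867, with Met at 0.0561 ± 0.0470. In R788 + anti-PDL1 tumors Gab1 (6.97 ± 2.96) was above Mst1r (5.33 ± 1.30) in each of the 3 tumors, although their ranges over tumors overlapped, and both were ahead of Hgf (1.42 ± 0.589) and Met (0.702 ± 0.373). In irradiated tumors Mst1r (3.99 ± 0.881) and Met (3.64 ± 0.712) were within each other's spread, below Gab1 (7.74 ± 1.31) and above Hgf (1.39 ± 1.02). St14, Spint1 and Spint2 stayed under 0.5 CPM per kb in every group mean.

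The other genes of the pathway were examined in 6 lists. Among 9 cell-surface partners of MET, 8 were tested, and their median log2 difference was 1.01 in R788 + anti-PDL1 and 0.77 in irradiated tumors against vehicle. Itgb4, the integrin chain that pairs with Itga6 and can act as a platform for MET, was at 15.2, 14.8 and 8.77 CPM in vehicle, 80.2, 63.6 and 80.3 CPM in R788 + anti-PDL1 and 7.30, 28.1 and 25.6 CPM in irradiated tumors. Itgb4 rose by 2.53 ± 0.43 in R788 + anti-PDL1 tumors (edgeR adjusted p = 0.0475), without overlap, and was the only member of its list to pass there. The Itgb4 call was lost when any 1 of the 6 libraries compared was left out (adjusted p from 0.0840 to 0.258). In R788 + anti-PDL1 tumors 4 of the 8 had an unadjusted p under 0.05 in edgeR and DESeq2 called 4. The shares of all genes there were 0.678% passing in edgeR, 11.7% and 4.86%. In irradiated tumors 0 of 8 passed in edgeR, 3 had an unadjusted p under 0.05 and DESeq2 called 1 (0.0439%, 13.2% and 3.85% of all genes). Log2 differences there ran from 0.40 (Itga6) to 1.68 (Nrp1, a semaphorin and VEGF co-receptor, edgeR adjusted p = 0.250). Irradiated against R788 + anti-PDL1 tumors, the differences ran from -1.87 (Itgb4, edgeR adjusted p = 0.179) to 1.02 (Plxnb2, a semaphorin receptor).

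Among the 14 ERK target and feedback genes, Spry1, which encodes a feedback inhibitor of receptor tyrosine kinase signaling, was the only gene to pass. It was at 4.42, 2.51 and 3.45 CPM in vehicle, 16.5, 45.7 and 23.5 CPM in R788 + anti-PDL1 and 24.4, 18.3 and 15.9 CPM in irradiated tumors, so that treated and vehicle tumors did not overlap. Spry1 rose by 3.05 ± 0.39 in R788 + anti-PDL1 tumors (edgeR adjusted p = 0.0375), where 0.678% of all genes passed. In irradiated tumors, where 0.0439% of all genes passed, Spry1 was higher by 2.497 ± 0.39 (0.0901). The list medians were 0.25 and 0.08 against vehicle, with Fos, an immediate early gene, lowest at -1.30 ± 0.29 (0.0932) in R788 + anti-PDL1 tumors and Fosl1 lowest at -1.14 ± 0.71 (0.466) in irradiated tumors. An unadjusted p under 0.05 was found for 7 of the 14 in the former comparison and 6 in the latter (11.7% and 13.2% of all genes). These genes went both ways. In R788 + anti-PDL1 tumors Dusp4, Dusp6, Spry1 and Spry2 were higher, and Dusp5, Egr1 and Fos lower. In irradiated tumors Dusp4, Dusp6, Spry1, Spry2 and Etv4 were higher, and Spred2 lower. DESeq2 called 6 and 3 (4.86% and 3.85% of all genes). The Spry1 call was lost when replicate 2 (0.164) or 3 (0.201) of vehicle, or replicate 1 (0.0707) or 3 (0.216) of the treated group, was left out. Between the treated groups the range was -0.65 (Spry4) to 1.27 (Etv4).

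Of 6 transcription factors known at the Met promoter, Ets2 passed, and it was lower. It was at 139, 179 and 173 CPM in vehicle, 62.1, 87.4 and 68.9 CPM in R788 + anti-PDL1 and 123, 140 and 122 CPM in irradiated tumors. Ets2 fell by 1.17 on the log2 scale (SE 0.19, edgeR adjusted p = 0.0390) in R788 + anti-PDL1 tumors, where 0.678% of all genes passed. The Ets2 call was lost with any 1 of the 6 libraries compared left out (0.0540 to 0.230) and under upper-quartile scaling (0.0513). In the same comparison 4 of the 6 factors were above 0. Sp1 (0.59 ± 0.45, edgeR adjusted p = 0.704) and Mitf (0.70 ± 0.40, 0.571) were higher without overlap, as were 13.6% of all genes. The part of these factors in the Met values was not tested. In irradiated tumors 0 of 6 passed in edgeR, DESeq2 or limma-voom and 0 had an unadjusted p under 0.05, with differences from -0.67 (Sp1) to 0.36 (Mitf). Irradiated against R788 + anti-PDL1 tumors, the range was -1.27 (Sp1) to 0.82 (Ets2).

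The 20 adaptors and effectors below the receptors and the 10 genes of receptor removal and dephosphorylation held 0 edgeR calls in all 3 comparisons. For the adaptors, 2, 2 and 4 had an unadjusted p under 0.05 in edgeR (11.7%, 13.2% and 18.4% of all genes). Limma-voom called 0 of them in each, and DESeq2 called 1, 1 and 0 (4.86%, 3.85% and 5.62% of all genes). The adaptor medians were -0.12, -0.18 and -0.07. Stat3, which relays MET signals to the nucleus, was lowest against vehicle in both treated groups (-0.78 and -0.90), with Gab2 (0.61) and Hras (0.72) highest, and between the treated groups Sos1 was lowest (-0.74) and Hras highest (1.07). For receptor removal, 2, 0 and 1 of the 10 had an unadjusted p under 0.05, against the same shares of all genes. DESeq2 and limma-voom called 0 of the 10 in each, and the medians were -0.01, 0.10 and 0.07. Sh3kbp1, an endocytic adaptor, was highest against vehicle in both treated groups (0.77 and 0.72), with Ptpn2 (-0.73) and Lrig1 (-0.22) lowest, and between the treated groups Cbl was lowest (-0.17) and Ptpn2 highest (0.75).

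Of 9 other proteases and a protease inhibitor that bear on HGF cleavage, only Plau and Plat passed the low-count filter. Plat, tissue plasminogen activator, was at 29.7 ± 7.99 CPM in vehicle, 41.8 ± 9.66 in R788 + anti-PDL1 and 47.8 ± 9.44 in irradiated tumors. Plau, the urokinase gene, was at 15.2 ± 1.62, 15.0 ± 4.11 and 12.5 ± 4.04 CPM. Neither passed in edgeR, DESeq2 or limma-voom. Plat in irradiated tumors (0.69 ± 0.26, edgeR adjusted p = 0.337) had an unadjusted p under 0.05, as 13.2% of all genes did.

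**Figure D3:**
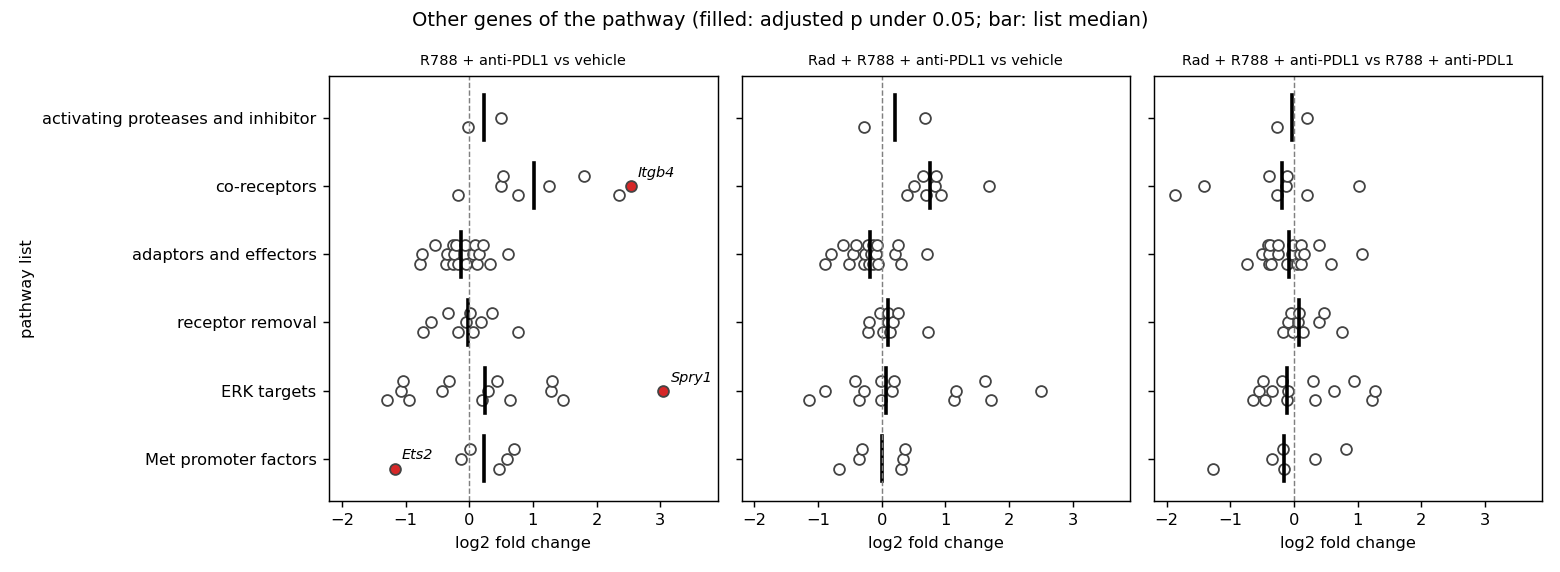
Log2 fold change (x axis) of every tested gene of the 6 pathway lists (y axis) in the 3 comparisons (panels). Filled points passed the edgeR test at an adjusted p under 0.05, open points did not, and vertical bars are list medians. Itgb4 and Spry1 lie to the right and Ets2 to the left in R788 + anti-PDL1 tumors, and the adaptor and receptor removal lists sit around 0.

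Summed markers of other cell types differed between groups for some of the lists. The 10 epithelial and keratinocyte markers summed to 9.72 to 10.5 CPM in vehicle, 5.95 to 67.9 CPM in R788 + anti-PDL1 and 51.4 to 78.3 CPM in irradiated tumors, with 2 to 4 of the 10 at 0. Krt5 made up most of the sum in every treated tumor but R788 + anti-PDL1 replicate 1 (1.90 CPM), while Krt14 had 0 to 2 counts in treated tumors and Epcam 0 to 7 counts in all. R788 + anti-PDL1 replicate 1 had the lowest sum of all 9 libraries (5.95 CPM) and the highest Met of its group (7.67 CPM), and its Mst1r (19.6 CPM) was above all vehicle tumors. The 6 endothelial markers summed to 43.9 to 49.2, 50.7 to 124 and 69.2 to 78.5 CPM, so the sums of treated tumors were higher without overlap. No endothelial marker passed in edgeR (lowest adjusted p = 0.218 in R788 + anti-PDL1 and 0.278 in irradiated tumors). In irradiated tumors 5 of the 6 were above vehicle, with Pecam1 at 29.3 against 15.2 CPM, Egfl7 at 19.3 against 7.99 CPM and Kdr at 9.25 against 8.88 CPM. Cdh5 was lower there (10.5 against 11.9 CPM). The 9 macrophage markers summed to 298 to 614, 636 to 673 and 320 to 1758 CPM. The 6 T cell markers summed to 1.70 to 3.98, 4.13 to 23.8 and 1.84 to 31.7 CPM, and the 5 neutrophil markers to 3.86 to 9.79, 1.499 to 2.66 and 2.33 to 15.9 CPM. In R788 + anti-PDL1 tumors the former sum was higher and the latter lower than in vehicle without overlap. Cd4 averaged 12.4 ± 10.4 CPM there, against 0.533 for Cd8a and 0.283 for Trac. Each of these 3 T cell markers overlapped with vehicle. None passed in edgeR (lowest adjusted p = 0.319), and DESeq2 called 1. The 5 skeletal muscle markers summed to 78.1 to 129.5, 37.4 to 49.9 and 62.3 to 137 CPM, lower without overlap in R788 + anti-PDL1 tumors. Des made up most of that sum, at 106 ± 28.3 CPM in vehicle and 38.4 ± 6.52 CPM in R788 + anti-PDL1 tumors (edgeR adjusted p = 0.0879). Mylpf was also lower there (3.27 and 1.81 CPM), while Ckm was not (1.07 and 1.72 CPM, with overlap). The 5 melanocyte markers summed to 2.30 to 3.28, 2.37 to 3.11 and 3.33 to 4.499 CPM, higher without overlap in irradiated tumors, and the 4 Schwann cell markers to 3.45 to 6.90, 2.25 to 5.33 and 1.99 to 3.79 CPM. The part of these markers in the values of Met, Mst1r and Hgf was not tested.

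The genes whose pattern over the 9 tumors was most like that of Met were Gm33699 (a long noncoding RNA gene on chromosome 9), Gm49391, 9330188P03Rik, Helt and Tes. The measure was the root-mean-square difference of log2 CPM after centering each gene on its mean, and it was 1.02, 1.03, 1.21, 1.27 and 1.29, against a spread of Met itself of 2.54. Gm33699 had 0 to 53 counts and Gm49391 0 to 40. Gm49391 lies on chromosome 13, 9330188P03Rik on 14 and Helt on 8. Tes, which encodes a focal adhesion protein, lies on the chromosome of Met (chr6:17065149-17105828), 358 kb before it. Tes was at 2.65 to 3.37 CPM in vehicle, 4.43 to 7.32 CPM in R788 + anti-PDL1 and 37.6 to 40.2 CPM in irradiated tumors. Among the members, Spint2 ranked 148, Mst1r 204 and Hgf 624 of 15930 genes by this measure, ahead of Spint1 (1163), Gab1 (8256) and St14 (13324). These ranks describe likeness in 9 tumors and carry no test.

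**Figure D4:**
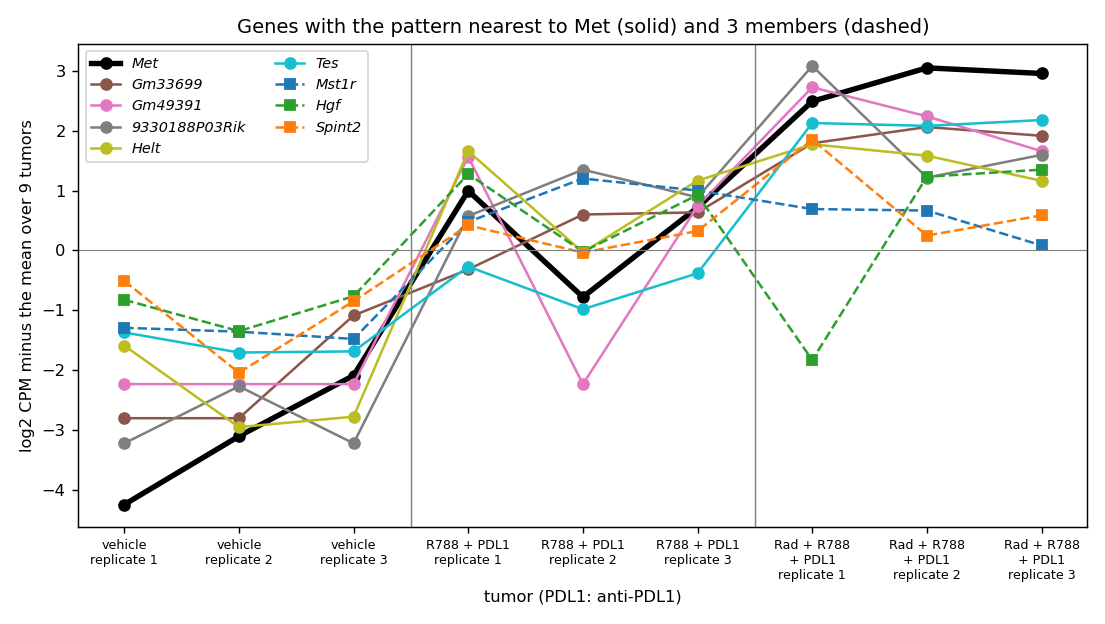
Log2 CPM minus the gene's mean over the 9 tumors (y axis) in each tumor (x axis, grouped by treatment) for Met, the 5 genes with the most similar pattern (solid) and 3 members (dashed). Lines join tumors only to guide the eye. Hgf has its lowest value in irradiated replicate 1, where Met lies above every R788 + anti-PDL1 tumor, and Mst1r overlaps between the treated groups while Met does not.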

How the data were processed

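Reads were mapped by the authors with STAR (2.6.1d in the submitters' processing notes) to mm10, quantified with Salmon (1.4.0) and compared with DESeq2 and apeglm. The deposited table holds estimated counts per gene symbol, given as whole numbers without normalization, and was used as deposited. Bone marrow-derived macrophages appear in the extraction protocol, although every tissue label reads whole tumor. The study's methods and the labels differ on the sequencer and on single or paired reads. Strandedness was not given in the sources used here, so genes that share exon bases are uncertain.

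Genes were filtered with filterByExpr (minimum count 10), TMM-normalized and fitted over all 9 libraries, with 1 coefficient per group, in edgeR 4.0.16 (R 4.3.3, robust quasi-likelihood F test, two-sided). Benjamini-Hochberg adjustment covered all 15931 genes, with a threshold of 0.05. SE and 95% intervals are Wald-type, scaled by the quasi-dispersion. CPM uses TMM library sizes, and log2 CPM a prior count of 2. An exact permutation test of 3 against 3 cannot go below 0.1. Scripts were tested on simulated data. Symbols (98.8% matched) took coordinates from GENCODE M21. Promoters were found for 8 of 9 genes.

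The members and lists were chosen with earlier results of these data known. Named were the 9 members, the 5 genes nearest in pattern to Met and, per pathway list and comparison, each gene called or otherwise the highest and lowest. Alternatives were DESeq2 1.42.0, limma-voom 3.58.1, RLE and upper-quartile scaling, no filter, only the 6 libraries compared, a replicate block, and leaving out each library. The fit of R788 + anti-PDL1 against vehicle without irradiated replicate 1 was added after the data were seen.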

Additional observations from a re-analysis of the deposited data

How the results depend on the processing

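The number of genes called depended strongly on the tool. Against 108, 7 and 1 genes in edgeR (R788 + anti-PDL1 against vehicle, irradiated against vehicle, irradiated against R788 + anti-PDL1), DESeq2 called 770, 611 and 822, edgeR without a low-count filter 199, 70 and 24, and edgeR on only the 6 libraries compared 594, 1 and 0. Limma-voom called 8 in the last comparison. Leaving out 1 library gave 0 to 856, 1 to 57 and 0 to 21 genes. The 856 came without irradiated replicate 1, and 0 came without vehicle replicate 2 or 3 or R788 + anti-PDL1 replicate 1 or 3. Partners of Met called numbered 2 with only the 6 libraries compared in R788 + anti-PDL1 against vehicle (0 to 2 with 1 library left out). In irradiated against vehicle they numbered 2 in DESeq2 and 1 without a filter (0 to 1 with 1 library left out), and between the treated groups 0 in every alternative. The cause was not tested.

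Met in irradiated against R788 + anti-PDL1 tumors was 2.38 in DESeq2, which passed, and 1.999 to 2.72 with 1 library left out. Mst1r against vehicle was higher in every alternative, and was called in 9 of 14 for R788 + anti-PDL1 and 3 of 13 for irradiated tumors. Against vehicle, Met ranged from 3.22 to 4.44 and from 5.58 to 6.81 with 1 library left out.

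Signs changed only for members near 0 or at low counts. Between the treated groups St14 was -0.0431 in limma-voom, and Gab1 in R788 + anti-PDL1 against vehicle was 0.0121 under upper-quartile scaling. With 1 library left out, R788 + anti-PDL1 against vehicle gave -0.43 to 0.36 for St14, -1.34 to 0.32 for Spint1 and -0.48 to 0.14 for Gab1. Irradiated against vehicle gave -0.96 to 0.41 for St14 and -0.0105 to 0.19 for Gab1. Between the treated groups the ranges were -0.42 to 0.48 for Hgf, -0.77 to 0.45 for St14 and -0.0744 to 0.54 for Gab1. St14 and Spint1 did not pass the filter in some fits of only the 6 libraries compared, which then gave no value.

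Samples with the same replicate number correlated in their deviations from the group means at -0.0463 to 0.233, and samples with different numbers at -0.225 to 0.123. The highest values were between vehicle and irradiated tumors of replicate 1 (0.233) and of replicate 2 (0.191). Whether samples of the same number share more than the number was not tested. With the replicate number as a block, 0, 3 and 0 genes and 0 partners of Met were called. Mst1r in R788 + anti-PDL1 tumors stayed at 2.31 with an adjusted p of 0.0667, and St14 between the treated groups was -0.0276.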

Other observations

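Among 16 tested genes within 250 kb of Mst1r, a window chosen after the values were seen, the median log2 difference from vehicle was 0.10 in R788 + anti-PDL1 and 0.26 in irradiated tumors, against 2.31 and 1.89 for Mst1r. The highest were Camkv (3.36) in R788 + anti-PDL1 tumors and Uba7 (1.55) in irradiated tumors. The lowest were Apeh (-0.39) and Slc38a3 (-0.48). Within 250 kb of Met, a window also chosen after the values were seen, 4 genes were tested, with medians of 0.94 and 1.75 in the same comparisons. Cav2 (1.99 and 3.29) and Cav1 (1.82 and 3.28), which lie before Met, passed the edgeR test in both, where 0.678% and 0.0439% of all genes passed. Capza2 (0.06 and -0.12) and St7 (-0.19 and 0.21), which lie after Met, did not.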
